A study of Mus musculus with 4 samples.

Results

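The 10 genes described here build and regulate the MHC class II pathway: Cd74, H2-Aa, H2-Ab1, H2-Eb1, H2-DMa, H2-DMb1, H2-DMb2, H2-Oa, H2-Ob and Ciita. They were chosen by name and not by a cutoff on a measured value, though earlier results of these data were known. Of these genes, 10 of 10 are among the 14697 genes counted in blood cells of young and old mice. The mice were C57BL/6 females, young at 4 months and old at 24 months, with no other treatment named, and blood of 2 mice was pooled per sample, giving 2 young and 2 old pools. Mononuclear cells from a density gradient, freed of red cells by lysis, were profiled in droplets, which read the 3′ end of each captured transcript and count it by a molecular tag (unique molecular identifier, UMI). The replicate is the pool (n = 2 per age), the mice of a pool are not separable, and nothing in the sources says whether the pools were processed on separate days. Levels are UMIs per 1000000 UMIs of the same cells (CPM), and values of the 4 pools are given in the order young pool 1, young pool 2, old pool 1 and old pool 2.

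MHC class II molecules hold peptides from ingested proteins at the cell surface for CD4+ T cells, and in mice B cells, dendritic cells and some monocytes carry them while resting T cells and NK cells do not. H2-Aa and H2-Ab1 encode the chains of I-A, and H2-Eb1 encodes the beta chain of I-E, whose alpha chain C57BL/6 mice do not make. Cd74 encodes the invariant chain, which fills the groove until the endosome, where H2-DM (H2-DMa with H2-DMb1 or H2-DMb2) exchanges its remnant for peptide and H2-O (H2-Oa with H2-Ob) inhibits H2-DM. Ciita encodes the coactivator that switches these genes on together.

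Ciita does not bind DNA itself but works through proteins bound at elements that the promoters of these genes share, so the promoters are shown. RefSeq promoter sequences (GRCm38.p6, the mm10 build, 250 bases before to 50 after each start) matched 7 of the 10 members, and no sequence is shown for H2-Ab1, Ciita and Cd74. The letters TGATTGG of the Y box, where NF-Y binds, were searched on either strand, as were the letters GNAAC of the X box, where RFX binds, starting 28 to 32 bases before them. TGATTGG was found in 6 of the 7 members (6 of their 8 promoters) and in 7.82% of 32851 promoters. The pair was found in 5 members and in 45 promoters (0.137%). Each line gives bases 110 to 31 before the start, 5′ to 3′, with these letters in capitals.
H2-Aa, chr17:34287854-34287933, minus strand: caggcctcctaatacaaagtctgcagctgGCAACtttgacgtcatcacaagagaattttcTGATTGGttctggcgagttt
H2-Eb1, chr17:34305757-34305836, plus strand: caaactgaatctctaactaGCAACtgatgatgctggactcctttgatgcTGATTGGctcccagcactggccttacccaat
H2-Oa, chr17:34092269-34092348, plus strand: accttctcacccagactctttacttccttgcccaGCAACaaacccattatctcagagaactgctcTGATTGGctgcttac
H2-Ob, chr17:34238795-34238874, plus strand: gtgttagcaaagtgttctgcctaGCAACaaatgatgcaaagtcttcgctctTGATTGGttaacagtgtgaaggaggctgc
H2-DMb1, chr17:34153081-34153160, plus strand: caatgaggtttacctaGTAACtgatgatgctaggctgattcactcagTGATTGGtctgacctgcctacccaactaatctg
H2-DMb2, chr17:34145139-34145218, plus strand: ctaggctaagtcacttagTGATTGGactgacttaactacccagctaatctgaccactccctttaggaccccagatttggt
H2-DMb2 holds TGATTGG without the GNAAC letters at that distance, and H2-DMa holds neither in its window of 300 bases. In the other 5 members TGATTGG starts 45 to 63 bases before the start. The start is that of the RefSeq promoter, and the windows of H2-DMb1 and H2-DMb2 lie inside the gene spans given below, which begin earlier. A match of letters is a description and shows no binding.

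Cells were assigned by raw UMIs of markers, none of them a member. B cells had at least 3 UMIs of Cd79a, Cd79b and Ms4a1, T cells at least 2 of Cd3d, Cd3e and Cd3g, monocytes at least 3 of Lyz2 with Csf1r, Ccr2 or Cx3cr1, and dendritic cells at least 2 of Cd209a, Clec10a and Flt3, each with limits on the other types' markers. Of 14588 cells, 7946 were B cells, 2438 T cells, 783 monocytes, 372 NK cells and 69 dendritic cells, and 2980 met no rule. The dendritic cells numbered 16, 15, 14 and 24 in the 4 pools, so that their values rest on few cells. Markers left out of the rules were higher in the class they mark. Ly6d was 1599.7 to 2796 CPM in B cells against 42.1 to 208 in T cells, Lat 523 to 591 in T cells against 3.89 to 23.2 in B cells, Ccl6 1502 to 2306 in monocytes against 6.62 to 28.3 in B cells, and Syngr2 260.1 to 624 in dendritic cells against 192 to 246 in monocytes. The dendritic cells of the pools were not alike. Cd209a was 1106, 1305, 309.6 and 1026 CPM, lowest in old pool 1, as were the markers Itgax (56.7, 65.3, 12.4 and 72.3 CPM, 26.8 to 36.6 in monocytes) and Klrd1 (213, 309.9, 37.2 and 477 CPM). The monocyte gene Lyz2 was 17788, 12088, 22096 and 8197 CPM in them, against 19968 to 27398 in monocytes. The median UMIs per cell were 2277 in B cells, 3450 in monocytes, 5144 in dendritic cells and 2730.5 in T cells. The pools held 9521253 to 18658072 UMIs, and 108 cell barcodes occurred in more than 1 pool.

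B cells and dendritic cells carried the I-A chains, H2-Eb1 and Cd74 at the highest levels, monocytes at lower ones, and T cells near a floor. Cd74 was 27118, 26336, 17572 and 25705 CPM in B cells. It was 14753, 26312, 11593 and 36223 CPM in dendritic cells, 4966, 4911, 3372 and 4698 in monocytes and 538, 761, 802 and 555 in T cells. The 4 pools of B cells lay above all pools of monocytes, which lay above all pools of T cells, while dendritic cells spread from below to above the B cells. H2-Aa, the I-A alpha chain, was 5615, 5585, 3922 and 5936 CPM in B cells, 4057, 8580.5, 2539 and 10388 in dendritic cells, 778, 802, 637 and 929 in monocytes and 132, 174, 158 and 130.02 in T cells. H2-Ab1, its beta chain, ran from 3591 to 5161 CPM in B cells, 2539 to 9549 in dendritic cells, 688 to 1033 in monocytes and 163 to 264 in T cells, and H2-Eb1 from 3240.4 to 4398, 1028 to 6215, 361 to 521 and 87.9 to 138. For these 4 genes the order of levels was the same, with monocytes between T cells and B cells and no overlap of pools. The level in dendritic cells moved from pool to pool far more than in any other class: young pool 2 and old pool 2 were high and young pool 1 and old pool 1 low for all 4 genes. The low pools were those with the higher Lyz2 given above, and the part of monocyte RNA or monocytes in this was not tested.

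Class comparisons were fitted to UMI counts summed per class and pool (edgeR), with the pool as a block and p adjusted over all genes tested. Errors of log2 fold changes here and below are standard errors. Against T cells, 10 of 10 members were higher in B cells, where 24.6% of 3048 genes were called higher, with a median log2 fold change of 4.79 over the members and 0.02 over all genes. The log2 fold changes ran from 3.37 ± 0.10 for H2-DMa to 5.23 ± 0.20 for Ciita, which had 1 to 7 UMIs per pool of T cells. Against monocytes, 9 of 10 members were higher in B cells (38.2% of all genes), from 1.26 ± 0.09 for H2-DMa to 4.63 ± 0.24 for H2-DMb2. The exception was H2-DMb1, at -0.22 ± 0.19 (adjusted p = 0.326). Monocytes in turn were above T cells for 6 of the 7 members tested (34.2% of all genes were called higher), with Cd74 at 2.60 ± 0.16 and H2-DMb1 at 3.70 ± 0.18. H2-DMb2 was at 0.30 ± 0.20 (adjusted p = 0.211). H2-Oa, H2-Ob and Ciita had a UMI in too few monocytes to be tested there under this filter. Between dendritic cells and B cells 6 of 10 members were called, 2 higher and 4 lower in dendritic cells, against 18.5% and 18.6% of all genes. The calls were H2-DMb1 and H2-DMa, higher, and H2-DMb2, H2-Ob, H2-Oa and Cd74 (-0.50 ± 0.15), lower, while H2-Aa (-0.15 ± 0.19), H2-Ab1 (-0.07 ± 0.21), H2-Eb1 (-0.53 ± 0.26) and Ciita were not called. Over the alternative settings the call for H2-DMa held in 5 of 13 and that for Cd74 in 9 of 13, while H2-Eb1 was called in 4 of 13 and H2-Aa in 2 of 13, and the other calls held in each. The calls for H2-DMa and Cd74 were lost with DESeq2 (adjusted p = 0.0893 and 0.12). The call for H2-DMa was also lost without young pool 1, young pool 2 or old pool 2 (adjusted p = 0.151, 0.21 and 0.188), and that for Cd74 without young pool 1 or old pool 1 (0.17 and 0.0861).

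**Figure D1:**
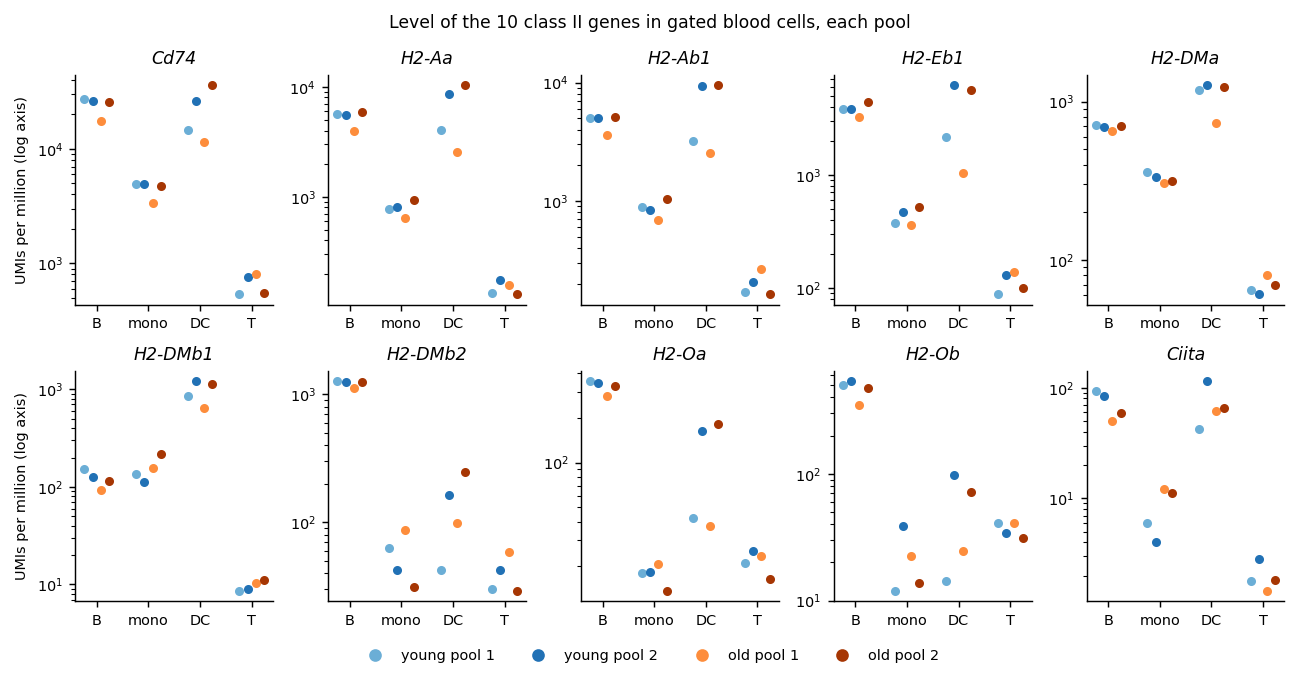
Level of each of the 10 genes, in CPM on a log axis, in B cells, monocytes (mono), dendritic cells (DC) and T cells, with 1 point per pool and no error bars. B cells lie above monocytes in every pool for each gene other than H2-DMb1, which is highest in dendritic cells (644 to 1207).

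The genes of the peptide editor H2-DM were split by cell class. The alpha chain gene, H2-DMa, was 713, 689, 655 and 704 CPM in B cells, 1192, 1272, 731 and 1236 in dendritic cells, 357, 336, 307 and 317 in monocytes and 64.9, 60.9, 81 and 69.6 in T cells. Dendritic cells were above B cells in each pool, at 0.41 ± 0.15 (adjusted p = 0.0394), a call held in 5 of 13 alternative settings. The 2 beta chain genes lay in opposite order. H2-DMb1 was 851, 1207, 644 and 1135 CPM in dendritic cells, 135, 112, 155 and 218 in monocytes and 151, 126, 92.7 and 114 in B cells, and 2.73 ± 0.18 (adjusted p = 3.88e-09) in dendritic against B cells. H2-DMb2 was 1262, 1245, 1127 and 1255 CPM in B cells but 42.6, 163, 99.1 and 246 in dendritic cells, -3.33 ± 0.25 (adjusted p = 1.96e-08). In monocytes H2-DMb2 was 63.1, 42.7, 86.4 and 31.3 CPM, and the range in T cells, 29.3 to 58.9, overlapped it, so that it is not told from background there.

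As a share of all H2-DMb UMIs, counted at the 3′ ends with no term for length, H2-DMb2 made up 89.3, 90.8, 92.4 and 91.7% in B cells of the 4 pools. The share was 31.8, 27.6, 35.8 and 12.6% in monocytes and 4.76, 11.9, 13.3 and 17.8% in dendritic cells, with no overlap with B cells. The lowest monocyte share, in old pool 2, rested on 25 of 199 UMIs, with a 95% exact binomial interval of 8.30 to 18.0% that covers counting error only. In T cells the share was 77.7, 82.7, 85.1 and 72.7%, nearer to that of B cells than to that of monocytes. H2-DMb1 and H2-DMb2 are related neighbours on chromosome 17 (34153072 to 34160230 and 34143307 to 34151555, plus strand, GRCm38), so that reads could be split between them. Their last 500 transcribed bases shared 0 of 403 stretches of read length (98 bases) and an identical run of at most 34 bases. By age, the share in B cells was 90.1% ± 1.06 (SD, n = 2) in young and 92.0% ± 0.496 in old pools, and 2 against 2 pools cannot go below p = 0.33 in the exact permutation test.

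H2-Oa and H2-Ob, the chains of the inhibitor, were highest in B cells. H2-Oa was 352, 341, 280.1 and 329 CPM and H2-Ob 501, 535, 351 and 473 CPM in B cells. In dendritic cells they were 42.6, 163, 37.2 and 181 and 14.2, 97.9, 24.8 and 72.3 CPM, with log2 fold changes against B cells of -1.82 ± 0.30 (adjusted p = 0.000105) and -3.37 ± 0.29 (adjusted p = 1.1e-07). Levels in monocytes (13.8 to 20.7 and 12 to 38.7 CPM) overlapped those in T cells (16.5 to 25.6 and 31.1 to 41.2). Under looser filters on genes H2-Ob was lower in monocytes than in T cells (-0.71 ± 0.27, adjusted p = 0.0313), and H2-Oa was at -0.28 ± 0.27 (adjusted p = 0.389). Per UMI of H2-DM (H2-DMa, H2-DMb1 and H2-DMb2 together), B cells held 0.401, 0.425, 0.337 and 0.387 H2-O UMIs. Dendritic cells held 0.0272, 0.0988, 0.042 and 0.0967 and monocytes 0.0541, 0.116, 0.0787 and 0.0487, each pool below every pool of B cells. The mean in B cells was 0.413 ± 0.017 (SD, n = 2) in young and 0.362 ± 0.0355 in old pools, which did not overlap, with p = 0.33 in the two-sided exact permutation test, the smallest that this design allows.

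**Figure D2:**
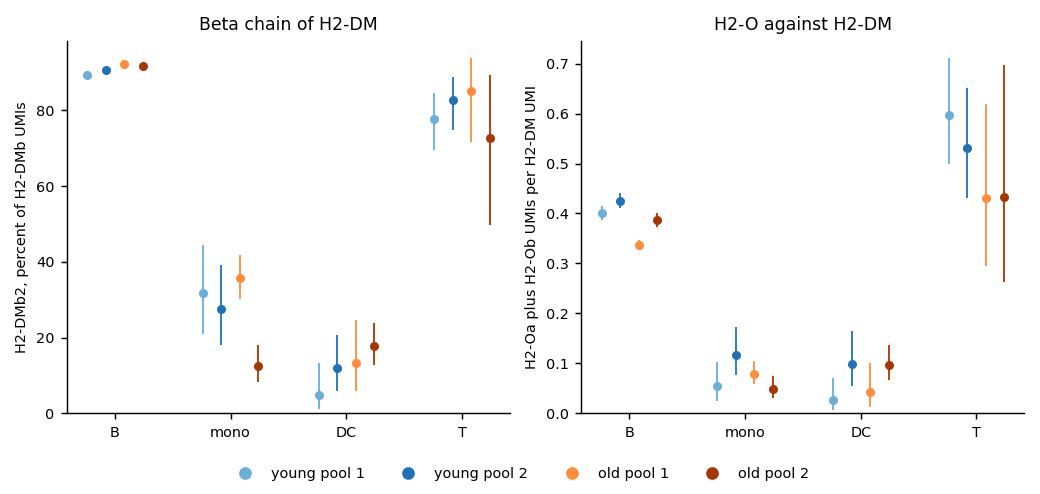
The left panel shows UMIs of H2-DMb2 as a percentage of H2-DMb1 plus H2-DMb2 UMIs and the right panel H2-Oa plus H2-Ob UMIs per UMI of H2-DMa, H2-DMb1 and H2-DMb2, in B cells, monocytes (mono), dendritic cells (DC) and T cells, 1 point per pool with its 95% counting interval. H2-DMb2 makes up 89.3, 90.8, 92.4 and 91.7% in B cells and at most 35.8% in each pool of monocytes and dendritic cells.

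Ciita was sparse, with 286 to 523 UMIs per pool of B cells and 3 to 9 per pool of dendritic cells. Its level was 93.5, 83.6, 50.3 and 58.6 CPM in B cells and 42.6, 114, 61.9 and 65.1 in dendritic cells, and the difference was -0.24 ± 0.31 (adjusted p = 0.586). Monocytes had 6.01, 4.07, 12.1 and 11.3 CPM and T cells 1.79, 2.84, 1.47 and 1.83. With no filter on genes the difference of monocytes against T cells was 1.81 ± 0.62 (adjusted p = 0.0133). With each cell thinned to 1000 UMIs, 9.52, 8.12, 6.31 and 6.51% of B cells had a Ciita UMI, against 0.263, 0.683, 0 and 0% of T cells. The 0 of 237 and 0 of 184 old T cells allow shares of up to 1.27 and 1.63%. Without thinning the shares were 21.2, 17.8, 15 and 18.8% of B cells and 0.439, 0.797, 0.422 and 0.543% of T cells. Low counts here mean few captured molecules per cell, and the share of cells with a UMI is not the share that makes the coactivator.

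The level in T cells was used as the background, since RNA released from other cells can enter any droplet. As a percentage of the B cell level in the same pool, Cd74 in T cells was 1.99, 2.89, 4.57 and 2.16%. H2-Aa was 2.35, 3.12, 4.02 and 2.19% and H2-DMb2 2.39, 3.43, 5.23 and 2.33%, close to these values. The highest share was in old pool 1 for Cd74, H2-Aa, H2-Ab1, H2-Eb1 and H2-DMb2. H2-DMa was 9.1, 8.84, 12.4 and 9.89%, and its counting interval in each pool lay above that of Cd74 and H2-Aa. H2-DMb1 was 5.75, 7.09, 11.1 and 9.67% and H2-Ob 8.18, 6.38, 11.7 and 6.59%, with intervals that overlapped those of H2-DMa in each pool, and H2-Oa was 5.95, 7.5, 8.41 and 5.01%. Other transcripts of B cells that no rule used also differed among themselves, with Ebf1 at 1.17, 1.54, 1.83 and 2.07%, Ly6d at 3.52, 3.9, 9.96 and 2.63%, Cd22 at 4.93, 3.75, 17.3 and 7.88% and Bank1 at 2.39, 3.42, 4.01 and 2.26%. NK cells gave Cd74 levels of 618, 761, 859 and 468 CPM and H2-DMa levels of 73.9, 58.3, 77.3 and 46.8 CPM. T cells with 0 UMIs of the B cell markers still had 523, 799, 767 and 529 CPM of Cd74 and 62.8, 59.3, 53.8 and 80.4 CPM of H2-DMa. What part of the T cell values came from other cells was not tested gene by gene.

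Cell by cell the classes differed in shape as well as in level. Per 1000 UMIs, the median B cell held 44, 42, 29 and 44 UMIs of Cd74, H2-Aa, H2-Ab1 and H2-Eb1 together in the 4 pools, and the median T cell 1, 1, 1 and 1. The median monocyte held 2, 2, 2 and 2, little more than a T cell, but the 95th percentile of monocytes was 15.6, 38, 18.3 and 38.6. A minority of monocytes was high: 24.8, 20.6, 17.6 and 31.1% of monocytes lay above the 99th percentile of the T cells of their own pool. The same limit was passed by 99.9, 99.6, 98.5 and 99.9% of B cells and 68.8, 86.7, 71.4 and 83.3% of dendritic cells. Before thinning the monocyte shares were 30.3, 24.8, 22.6 and 41.1%. The rule for monocytes let through a few UMIs of dendritic and B cell markers. What part of the high cells were dendritic cells or doublets was not tested. Dendritic cells were the most uneven, with quartiles of 2.75 and 46 in young pool 1 and of 38.5 and 86 in old pool 2. In old pool 1 the lower quartile of B cells was 17, against 33 to 34 in the other 3 pools, while the upper quartiles were 54, 51, 47 and 56. Before thinning the lower quartiles of B cells were 77, 67.5, 61 and 104 and the medians 97, 89, 91 and 135. Old pool 1 was then close to the young pools and old pool 2 was highest.

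**Figure D3:**
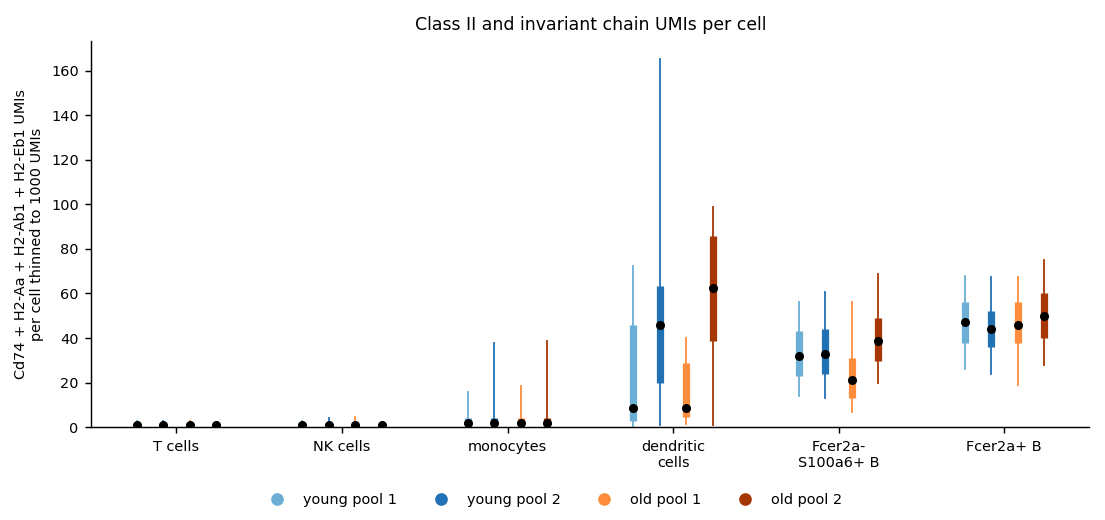
Summed UMIs of Cd74, H2-Aa, H2-Ab1 and H2-Eb1 per cell after thinning to 1000 UMIs, by cell class and pool, with B cells split by UMIs of Fcer2a and S100a6. Points are medians, thick bars the quartiles and thin lines the 5th to 95th percentiles of cells. T, NK and most monocytes lie near 0, and the Fcer2a- S100a6+ B cells of old pool 1 (median 21) lie below the Fcer2a+ B cells (medians 47, 44, 46 and 50).

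Old and young blood were compared next, within each class. In B cells 0 of 10 members passed the test for age in edgeR (1 by DESeq2, and 1 at an unadjusted p under 0.05), where 4.14% of 2654 genes did, and the median log2 fold change was -0.12 over the members and -0.0038 over all genes. Ciita came closest, at 93.5, 83.6, 50.3 and 58.6 CPM. The 2 old pools lay below the 2 young ones, at -0.64 ± 0.13 (adjusted p = 0.0525), and DESeq2 called it (adjusted p = 0.00146). H2-DMb1 (-0.36 ± 0.15), H2-Ob (-0.26 ± 0.17) and H2-Oa (-0.12 ± 0.11) were also lower in both old pools than in both young ones. For Cd74 (-0.23 ± 0.20) the pools separated as well, with old pool 2 only just below the young pools. H2-Aa, H2-Ab1 and H2-Eb1 had old pool 1 lowest and old pool 2 highest of the 4 pools, so that the old pools lay on both sides of the young ones. Without old pool 2, 8 of 10 members were called lower in old B cells, where 292 of 2636 genes were (11.1%), from -0.19 for H2-Eb1 to -0.77 for Ciita. Without old pool 1, Ciita was at -0.51 and H2-Eb1 at 0.29.

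The old pools of B cells lay outside the range of the young ones in make-up. B cells with over 2 platelet UMIs, which were left out, numbered 0, 3, 422 and 126 in the 4 pools. Cells with a UMI of Fcer2a, the low-affinity IgE receptor of resting follicular B cells, were 43.6, 41.2, 22.5 and 23.2% of B cells, and cells with S100a6 but no Fcer2a UMI were 16.2, 13.1, 61.7 and 45.8%. These shares were not thinned, and the median UMIs of B cells were 2078, 2026, 2665 and 2923. The part of depth in them was not tested. All 10 members were lower in Fcer2a- S100a6+ than in Fcer2a+ B cells of the same pools, where 11.9% of 3391 genes were called lower, with medians of -0.54 over the members and 0.01 over all genes. The log2 fold changes were -1.19 ± 0.17 for Ciita, -0.98 ± 0.12 for H2-Oa, -0.66 ± 0.09 for H2-Ob and -0.60 ± 0.12 for H2-DMb1, and from -0.57 (H2-Ab1) to -0.34 (H2-Eb1) for the other 6. This comparison was added after the data had been seen. Ciita was 54.5, 57.9, 29 and 47 CPM in Fcer2a- S100a6+ and 107, 97.2, 111 and 96 CPM in Fcer2a+ B cells. H2-Oa was 213, 207, 183 and 265 CPM in the former and 401, 383, 536 and 445 in the latter. In both genes every pool of the former lay below every pool of the latter. The Fcer2a- S100a6+ cells were the deeper ones, with 3578 against 2167 median UMIs, and these differences are in shares of UMIs. Without thinning, the median Fcer2a- S100a6+ B cell held 103, 92, 81 and 154 UMIs of Cd74, H2-Aa, H2-Ab1 and H2-Eb1 together. The median Fcer2a+ B cell held 104, 97, 108 and 127, so that per cell the order of the 2 subsets differed between pools.

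Within Fcer2a+ B cells Cd74 was 28739, 27846, 27563 and 30118 CPM and H2-Ab1 5538, 5424, 5490.5 and 5959 CPM. H2-Oa was 401, 383, 536 and 445 CPM, with both old pools above the young ones (0.36 ± 0.10, adjusted p = 0.247). For age 0 of 10 members were called, where only 4 of 2672 genes were. Ciita, the gene nearest to a call in all B cells, was at 0.07 ± 0.13 (adjusted p = 0.891) there. Its value within Fcer2a- S100a6+ B cells was -0.58 ± 0.28 (adjusted p = 0.463), with old pool 1 at 29.0 CPM and old pool 2 at 46.9 CPM. Leaving out B cells with a UMI of Adm or Zcwpw1, which were 4.28, 3.52, 29.1 and 22.2% of B cells, gave -0.37 ± 0.11 (adjusted p = 0.121). The difference of these fold changes from that in all B cells was not tested. Cd74 in old pool 1 was 13609.8 CPM in Fcer2a- S100a6+ B cells and 27563 CPM in Fcer2a+ B cells. By age, 0 of 10 members and 1 of 3331 genes were called within Fcer2a- S100a6+ B cells.

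**Figure D4:**
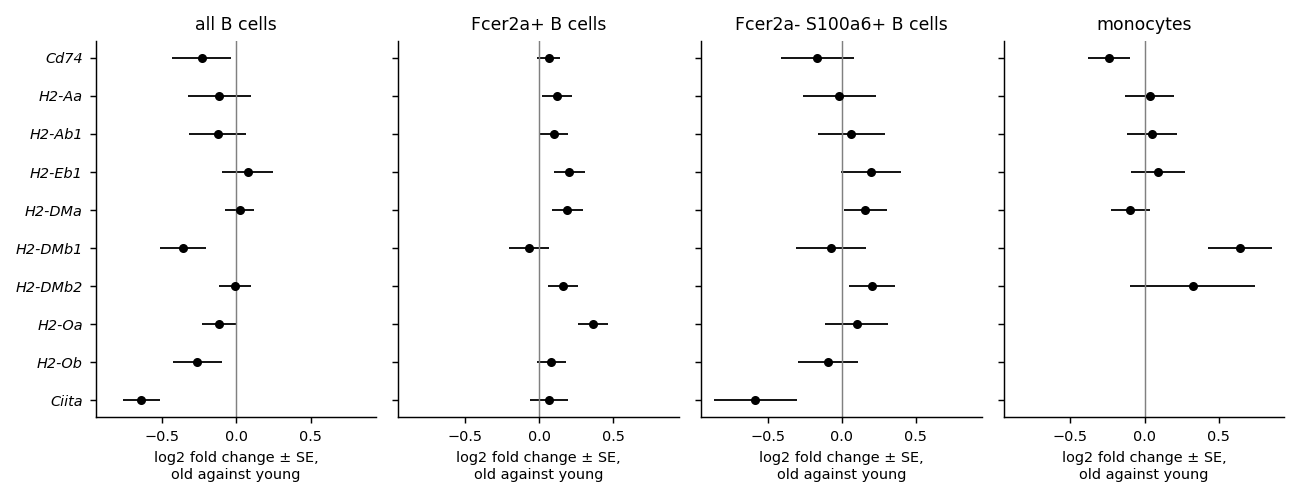
Log2 fold change of old against young pools for the 10 members in all B cells, in Fcer2a+ and in Fcer2a- S100a6+ B cells and in monocytes, with bars of 1 standard error. None of the values passed the threshold, and Ciita sits at -0.64 in all B cells and at 0.07 in Fcer2a+ B cells. Genes detected in too few monocytes are left blank.

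In monocytes 0 of 7 members tested passed for age in edgeR (0 by DESeq2, and 1 at an unadjusted p under 0.05), where 2.9% of 3033 genes did. The largest value was that of H2-DMb1, 135, 112, 155 and 218 CPM, with both old pools above both young ones and a difference of 0.64 ± 0.21 (adjusted p = 0.132) in log2. It was called without old pool 1 (0.89, adjusted p = 0.00314). H2-DMb1 thus lay higher in old monocytes and lower in old B cells (151, 126, 92.7 and 114 CPM), and the difference between these age effects was tested by an interaction term. It was 0.99 ± 0.20 (adjusted p = 0.00378), 1 of 7 members called higher against 1.34% of 2162 genes. The call was lost with DESeq2 (adjusted p = 0.0838), without a sample block (0.178), and without young pool 1 (0.225), young pool 2 (0.343) or old pool 1 (0.0527). Over all alternatives the estimate stayed between 0.90 and 1.09. Cd74 was -0.24 ± 0.14 and H2-DMa -0.10 ± 0.13 in old against young monocytes.

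The monocyte pools of the ages also differed in make-up without overlap. Those with 0 UMIs of Ly6c2, the marker that classical monocytes carry at a high level, were 58.7, 61.2, 37.3 and 27.9% of monocytes. These shares were not thinned, and the median UMIs of monocytes were 2547, 2763, 3288 and 4270.5. The part of depth in the shares was not tested. In a comparison added after the data had been seen, Ly6c2-0 monocytes had more Cd74 (0.78 ± 0.08), H2-Aa (0.90 ± 0.14), H2-Ab1 (0.82 ± 0.14) and H2-Eb1 (1.10 ± 0.13) than monocytes with at least 2 Ly6c2 UMIs, and less H2-DMa (-0.79 ± 0.14) and H2-DMb2 (-0.74 ± 0.28). Thus 4 of 7 members were higher and 2 lower, against 16.5% and 16.4% of 3503 genes. Cd74 was 3859, 6091, 4506 and 6776 CPM in Ly6c2-0 and 3851, 2758, 2743 and 2839.7 CPM in Ly6c2-high monocytes, level with each other in young pool 1. H2-DMa was 243, 238, 189.97 and 255 against 493, 429, 354 and 313 CPM, lower in each pool. H2-Aa went the other way in young pool 1, with 338 CPM in Ly6c2-0 and 580.2 in Ly6c2-high monocytes. DESeq2 did not call H2-Aa (0.385) or H2-Ab1 (0.392), nor did stricter marker rules (0.227 and 0.119, all adjusted p). H2-DMb2 was near background, and its call held in 5 of 13 alternative settings. The median UMIs per cell were 2280 and 4381. After thinning, the median Ly6c2-0 monocyte held 2, 2, 2 and 2 UMIs of Cd74, H2-Aa, H2-Ab1 and H2-Eb1 together. The median Ly6c2-high monocyte held 2, 1, 2 and 1. The highest 5% of cells began at 14.55, 40, 22.2 and 41.6 against 17.2, 19.2, 13.15 and 19.5 UMIs. Outside young pool 1, Ly6c2-0 monocytes thus stood out more among these high cells than at the median. The part of dendritic cells or doublets among the high cells was not tested. Without thinning the medians were 6, 6, 6 and 7 against 4.5, 6, 8 and 6. By age, H2-DMb1 was 0.73 ± 0.27 within Ly6c2-high and 0.78 ± 0.33 within Ly6c2-0 monocytes, not called in either.

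**Figure D5:**
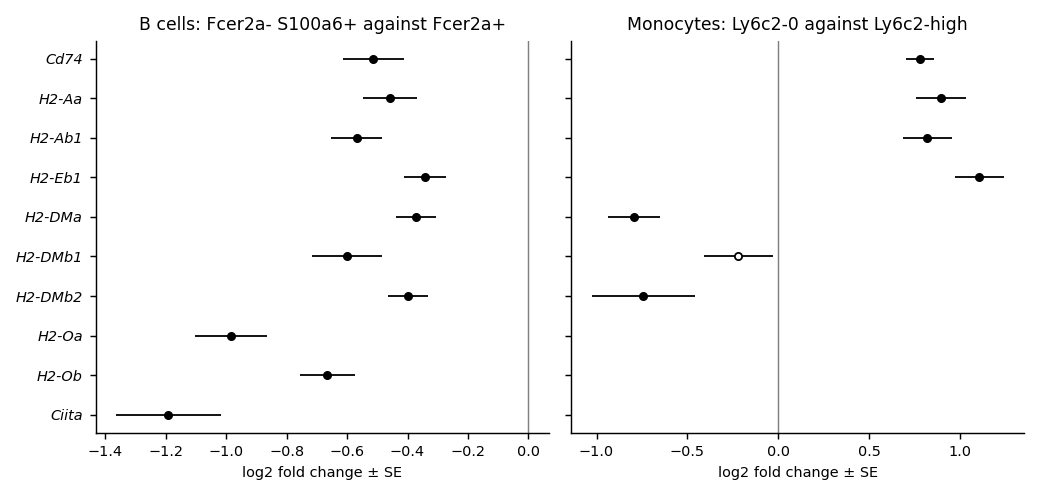
Log2 fold changes with bars of 1 standard error between subsets of B cells (left) and of monocytes (right), over 4 pools with the pool as a block. Filled points passed the adjusted threshold of 0.05 and the open point did not. In B cells 10 of 10 members are lower in Fcer2a- S100a6+ cells, while in monocytes Cd74, H2-Aa, H2-Ab1 and H2-Eb1 lie to the right of 0 and H2-DMa, H2-DMb1 and H2-DMb2 to the left.

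In dendritic cells 0 of 10 members were called for age and 0 of 3482 genes overall (0.0%, edgeR), with 0 members and 143 genes at an unadjusted p under 0.05 and 0 calls by DESeq2. With 14 to 24 cells per pool the standard errors were wide, as for Cd74 (0.29 ± 0.36) and H2-DMb2 (0.96 ± 0.58). The values turned on single pools. Without old pool 2, Cd74 was -0.86, H2-Aa -1.35, H2-Ab1 -1.34 and H2-Eb1 -2.06, all called, while without old pool 1 Cd74 was called at 0.85 and without young pool 2 at 0.86 (H2-Ab1 1.09). No age difference in dendritic cells was detectable at this number of cells. In dendritic cells with at least 2 Cd209a UMIs, H2-DMb1 was 2.83 and H2-DMb2 -3.15 against B cells, an alternative added after the data were seen. In T cells 0 of 5 members tested were called for age by edgeR (9.14% of 2615 genes were) or DESeq2, and 0 had an unadjusted p under 0.05, with Cd74 at -0.04 ± 0.18 and H2-DMa at 0.16 ± 0.18. The age effects of T cells and B cells differed for 0 of 5 members by either tool, with 0 at an unadjusted p under 0.05 (9.0% of 2221 genes).

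Other genes of the pathway followed the classes in their own way. Of 8 genes that process the invariant chain and antigen in endosomes, 6 of the 7 tested were lower in B cells than in monocytes, where 34.4% of all genes were, among them Ctsb (-3.33 ± 0.17), Ctsd (-1.65 ± 0.15) and Ctss (-1.60 ± 0.08), the protease that trims the invariant chain. In dendritic against B cells 5 of 7 were higher, where 18.5% of all genes were, led by Ctsb (2.08 ± 0.21), Ifi30 (1.52 ± 0.16), the thiol reductase of antigen processing, and Ctss (1.20 ± 0.14), and 0 lower. Of the 7 genes for turnover and costimulation 3 were tested in B cells against T cells and 3 were higher, where 24.6% of all genes were: March1, the ligase that removes class II from the surface, was at 5.17 ± 0.19, Cd40 at 4.28 ± 0.20 and Cd83 at 3.72 ± 0.22. March1 and Cd83 were lower in dendritic than in B cells (-1.17 and -2.48). Of 13 transcription factors of class II genes, 5 were tested in monocytes against T cells, where 2 were higher, Spi1 (6.70 ± 0.20) and Irf8 (3.15 ± 0.18), and 1 lower, Irf1 (-0.90 ± 0.20). In B cells against T cells 6 were tested, and 3 were higher, Pax5 (5.0 ± 0.16), the B cell factor, Spi1 (4.21) and Irf8 (3.76), and 2 lower, among them Irf1 (-0.69). The others of the 13 had a UMI in too few cells. The class I list of 9 genes, a contrast to class II, had 0 genes higher in B cells than in T cells and 3 of 8 lower, next to 20.5% of all genes (B2m -0.49, H2-K1 -0.58 and Tap2 -0.35). The call for Tap2 held in 9 of 13 alternative settings.

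By age, the lists gave few calls. In B cells Cd40, which receives help from T cells, fell (log2 fold change -0.91 ± 0.12, adjusted p = 0.0236), and Psmb9, a subunit of the immunoproteasome, rose by 0.64 ± 0.10 (adjusted p = 0.0321), while 0 of 7 processing genes and 0 of 5 transcription factors were called. Both calls were lost without young pool 1 and without young pool 2, when 0 genes in all were called in B cells, and within Fcer2a+ and within Fcer2a- S100a6+ B cells, and held in 11 of 16 (Cd40) and 12 of 16 (Psmb9) alternative settings. In monocytes 2 of 7 processing genes rose, Ifi30 (1.30 ± 0.16, adjusted p = 0.000754) and Ctsd (0.76 ± 0.18, adjusted p = 0.0371), where 2.9% of all genes were called. Without young pool 2, 0 genes in all were called in monocytes. The call for Ifi30 held in 14 of 16 and that for Ctsd in 9 of 16 alternative settings, and Ctsd was not called with DESeq2. Ifi30 was 285, 234, 534 and 690.04 CPM in monocytes. It was lower in Ly6c2-0 than in Ly6c2-high monocytes (Ly6c2-0 against Ly6c2-high -1.90 ± 0.14). The latter made up 34.9, 29.1, 55.8 and 64.7% of monocytes (not thinned), and Ifi30 was 421, 418, 697 and 829 CPM within Ly6c2-high monocytes. In T cells B2m (0.35), H2-D1 (0.48) and Psmb8 (0.40) rose, 3 of 8 class I genes tested with medians of 0.39 over the list and -0.0028 over all genes, as did Ctsz (0.73), Ctsb (0.67) and Irf1 (0.55), where 9.14% of all genes were called. Over the alternative settings the call held in 15 of 15 for H2-D1, 14 of 15 for Ctsb, 13 of 15 for B2m, 9 of 15 for Psmb8, 9 of 14 for Ctsz and 5 of 15 for Irf1. Without young pool 1, H2-D1 alone of these was called. The T cells were not split into their subsets here, and the paper reports a T cell cluster made up of old cells only. What part a change in the make-up of T cells had in these values was not tested. In dendritic cells 0 list genes were called, with the counts by other tools given above. Fcer2a- S100a6+ B cells had less Icosl (-1.94 ± 0.28), Irf8 (-1.03 ± 0.12), Lgmn (-0.96 ± 0.12) and Cd40 (-0.83 ± 0.16) than Fcer2a+ B cells, and of the lists only Ctsb was higher (0.32 ± 0.10). That call for Ctsb held in 5 of 13 alternative settings and was lost with DESeq2. In Ly6c2-0 monocytes the class I genes H2-K1 (1.11), Tap2 (0.92) and B2m (0.78) were higher, 4 of 8 tested, where 16.5% of all genes were.

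Over 20 profiles (5 cell classes in 4 pools, which share libraries), the members' own correlation with the members' mean ran from 0.68 for H2-Ob and 0.75 for H2-DMb1 to 0.99 for H2-Eb1, on log2(CPM + 1). The genes most like that mean were Bcl11a (0.92), a transcription factor of lymphoid and dendritic cells, Kmo (0.91), Map4k1 (0.91), Serp1 (0.90), Pgls (0.89), Nap1l1 (0.89), Pold4 (0.88) and Cd24a (0.87). Bcl11a averaged 186 CPM in B cells, 105 in dendritic cells, 31.2 in monocytes and 4.55 in T cells. Cd24a averaged 476, 165, 50.1 and 28 CPM in the same order. These correlations describe the profiles and were not tested.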

How the data were processed

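Peripheral blood of C57BL/6 mice was profiled as 2 young and 2 old pools with the 10x Chromium 3′ assay. UMIs were assigned to genes of mm10 in Cell Ranger by the authors, who combined the pools, filtered cells in Seurat 2.3.0 by genes and mitochondrial share, and deposited raw UMI counts per gene and cell, with the pool of each cell in a separate list. Whether depth was equalised between pools, and which annotation was used, is not given in the labels or methods used here. Ighm, Ighd, Igkc and Trac, planned as tracers or checks, were not among the genes counted and were not analysed here.

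The 10 members, the related lists and the tests were chosen with earlier results of these data known. Cell classes were rebuilt from marker UMIs, since the list of cells gives no types: besides the markers named above, every class allowed at most 2 platelet UMIs (Ppbp, Pf4, Gng11), at most 2 C1q UMIs and at most 10% haemoglobin UMIs. Doublets were limited by these rules, which exclude each other, so that no cell could be in more than 1 class, and remaining doublets were not counted. The deepest 4% of each class were left out as an alternative. UMI counts were summed per class and pool and tested with edgeR 4.0.16 (quasi-likelihood, TMM, Benjamini-Hochberg over all genes tested in a comparison, threshold 0.05). A gene was tested if at least 10% of the cells had a UMI in each age, and a class if every pool held at least 5 cells. Class comparisons had the pool as a block. A log2 fold change is from this fit, whose scaling differs slightly from CPM. DESeq2 1.42.0, RLE size factors, other filters on genes, stricter marker rules, platelet-bearing cells kept, subsets of cells and leaving out each pool were alternatives. Shares per pool (29 in all) had two-sided exact permutation tests with 6 labellings and a smallest p of 0.33. Every adjusted p of these 29 was 1. Shares of cells with a Cd74 or Ciita UMI or above the T cell limit were compared after thinning each cell to 1000 UMIs (no cell held fewer than 1117). Shares of the subsets of B cells and monocytes were not thinned. The 95% intervals (exact, binomial for shares and Poisson for levels) hold the error of counting alone. Per age, p-values measure the spread between 2 pools. Named genes are the members, up to 3 list genes called per direction, and the 8 genes over 50 CPM most correlated with the members' mean. The tests by age in B cells, monocytes and T cells and those of B cells against monocytes and T cells were tried on simulated data. So were the age difference of monocytes minus B cells and both comparisons of subsets. The dendritic cell comparisons, monocytes against T cells and the age difference of T cells minus B cells were not. The simulated pools of an age shared the same expected levels, unlike the old pools here. Sums, shares and figures were made in Python 3.11.15 (with scipy 1.17.1, matplotlib 3.10.9, pandas 2.3.3, numpy 2.4.6) and fits in R 4.3.3.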

Additional observations from a re-analysis of the deposited data

Results flagged for a closer look

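In 5 cases the age effect differed between 2 cell classes by an interaction term of edgeR, adjusted over all genes tested, among the members and the related lists. For H2-DMb1 the log2 difference, monocytes minus B cells, was 0.99 ± 0.20 (SE, adjusted p = 0.00378), with age effects of 0.64 in monocytes and -0.36 in B cells fitted alone. For Ifi30 it was 0.83 ± 0.17 (adjusted p = 0.00378), with 1.30 in monocytes and 0.46 in B cells. Ctsb (-0.75 ± 0.17, adjusted p = 0.011) and H2-K1 (-0.60 ± 0.15, adjusted p = 0.0193) went the other way, with -0.11 and -0.45 in monocytes and 0.64 and 0.15 in B cells. For H2-D1 the difference of T cells minus B cells was 0.36 ± 0.10 (adjusted p = 0.0356), with 0.48 in T cells and 0.16 in B cells. Over the alternative settings the call held in 8 of 13 for H2-DMb1, 9 of 13 for Ifi30, 7 of 13 for Ctsb, 7 of 13 for H2-K1 and 7 of 13 for H2-D1. Each of the 5 was lost without young pool 1, without young pool 2 and without a sample block. Each rests on 2 pools per age. The shares of Ly6c2-0 monocytes and of Fcer2a+ B cells, which were not thinned, moved with age too. The part of these shifts, of depth and of the make-up of T cells was not tested.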

How the results depend on the processing

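Against the 1328 values recomputed under alternatives, 1262 kept their direction or were called in neither, 31 lost and 31 gained a call and 4 reversed. Among the first, 90 values called in neither setting changed sign, 83 of them in age comparisons. The 4 reversals came without old pool 2, with log2 fold changes by age of -0.19 for H2-Eb1 in B cells and of -0.86 for Cd74, -1.35 for H2-Aa and -1.34 for H2-Ab1 in dendritic cells, and their cause was not tested. Without old pool 1 the same H2-Eb1 value was 0.29, and without young pool 2 the values in dendritic cells were 0.86 for Cd74, 0.84 for H2-Aa and 1.09 for H2-Ab1.

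The number of members called by age in B cells (0) became 1, Ciita, with DESeq2, without a filter on genes, with platelet-bearing cells kept, without the deepest 4% of cells and without immunoglobulin and haemoglobin genes, and ran from 0 to 8 without 1 pool. In monocytes it became 1 without a filter on genes and ran from 0 to 1 without 1 pool, in dendritic cells from 0 to 4, and in T cells it stayed at 0. The age difference of monocytes minus B cells called 0 members with DESeq2 and 0 without a sample block, and 0 to 1 without 1 pool, and that of T cells minus B cells 0 to 1. Ly6c2-0 against Ly6c2-high monocytes gave 3 members with DESeq2, 3 with stricter marker rules and 5 to 6 without 1 pool. Dendritic against B cells gave 4 to 6 without 1 pool. The other class comparisons and the Fcer2a comparison kept their number of members called when any 1 pool was left out. The cause of these changes was not tested. Leaving out immunoglobulin and haemoglobin genes changed the number of genes tested for age in B cells from 2654 to 2650 only. Ighm, Ighd and Igkc were not among the genes counted, so this setting could not show their weight.

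Over all genes, age in B cells called 110 genes, and 450 with DESeq2, 424 with the filter of edgeR (292 higher), 826 with none (556 higher), 173 without the deepest cells, 4 in Fcer2a+ and 1 in Fcer2a- S100a6+ B cells, 38 without Adm or Zcwpw1 cells, and 0 to 622 without 1 pool. Age in monocytes called 88, 290 without a filter, 57 in Ly6c2-high and 9 in Ly6c2-0 monocytes, and 0 to 196 without 1 pool. In dendritic cells the count was 0, and at most 18 under any alternative. T cells gave 239, 374 with the filter of edgeR, 655 with none and 148 without young pool 1. The difference of monocytes minus B cells gave 64 genes, 39 with DESeq2, 125 and 189 with the other filters, 11 without a sample block and as few as 1 without 1 pool. T cells minus B cells gave 200, 104, 404, 515, 24 and as few as 23, in the same order. The Fcer2a comparison gave 842, 486, 1408, 1643 and 452 (8 members), and that of monocyte subsets 1152, 468 with DESeq2 and 752 without old pool 1. Without a filter B cells against T cells called 3862 genes in place of 1376, against monocytes 5680 in place of 2556, and monocytes against T cells 4815 in place of 2472. The looser filters moved the median of all genes in dendritic against B cells from -0.06 to -0.45 and -0.82.

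Young and old pools share the numbers 1 and 2, but only the number: the deviations of same-numbered pools correlated at -0.041 in B cells, -0.181 in monocytes, 0.147 in dendritic cells and -0.18 in T cells. With this replicate block, age in B cells called 283 genes and 1 member. The crossed pairing, added after the data were seen, called 204 genes and 1 member in monocytes and 401 genes and 0 members in T cells.

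Stricter marker rules were not run for dendritic cells, since a pool then held fewer than 5 cells. With 2 pools per age, no exact test of a single value can pass the threshold. H2-Oa, H2-Ob and Ciita were tested in monocytes against T cells only under looser filters, which called H2-Ob (lower, under both) and Ciita (higher, with no filter).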

Other observations

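Some cells outside the classes carried the class II genes too, and their values are given without a comparison, in the order of pools used above. Of the 66 cells with over 2 UMIs of the complement genes C1qa, C1qb and C1qc, which macrophages make, 14 also had at most 2 platelet UMIs, at most 2 B cell marker UMIs, at most 1 T cell marker UMI and at most 10% haemoglobin UMIs, and these numbered 2, 2, 2 and 8 per pool. They held 1873, 422, 8825 and 20474 CPM of Cd74 and 312, 211, 1251 and 7420.4 CPM of H2-Aa. Their H2-DMb UMIs were 0, 0, 2 and 31 of H2-DMb1 and 0, 0, 1 and 4 of H2-DMb2.

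The 11 cells within the same limits that had at least 2 UMIs of Siglech, a marker of plasmacytoid dendritic cells, and at most 2 C1q UMIs numbered 4, 2, 2 and 3. Cd74 was 13524, 3987, 5931 and 3240.5 CPM and H2-DMa 568, 1474, 2039 and 2243 CPM in them, and their UMIs were 8, 5, 2 and 20 of H2-DMb1, 4, 0, 2 and 0 of H2-DMb2 and 0 of H2-Ob in every pool. The 37 cells within those limits that had basophil markers held 3, 30, 18 and 5 UMIs of Cd74, or 352, 854, 1357 and 452 CPM, next to 538, 761, 802 and 555 CPM in T cells.

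B cells with a UMI of Adm or Zcwpw1 numbered 90, 71, 742 and 283. Cd74 was 20948, 19573, 12964 and 21809 CPM, H2-Aa 4357, 4384, 3267 and 5131 CPM and Ciita 68.7, 43.3, 26.9 and 36 CPM in them. Old pool 1 was lowest for all of these, and old pool 2 was highest for Cd74 and H2-Aa. The B cells with platelet RNA of old pools 1 and 2 had Cd74 at 16782 and 25346 CPM and Ciita at 41.9 and 47.1 CPM.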
